A study of Mus musculus with 6 samples.

Results

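Desert hedgehog (*Dhh*) and 8 further genes of the hedgehog pathway, namely *Shh*, *Ptch1*, *Smo*, *Gli1*, *Gli2*, *Gli3*, *Hhip* and *Boc*, were followed in sciatic nerves of mice that lacked the chromatin remodeler Ep400 in Schwann cells (SCs). They were picked by name as ligands, receptors, signal transducer and transcription factors of 1 pathway, and are 9 of the 46603 genes in the deposited table. RNA-Seq was performed on whole sciatic nerve at P9, with 3 control and 3 *Ep400ΔPNS* libraries. Control mice carried the conditional *Ep400* allele without Cre, and *Ep400ΔPNS* mice carried the same allele together with a *Dhh::Cre* transgene. All 6 libraries are labelled as biological replicates. The labels give a mixed 129SvJ/C57Bl/6J background and the study's methods one of C3H and C57Bl/6J, with male and female mice. The *Dhh::Cre* transgene uses regulatory sequence of *Dhh* and deletes *Ep400* in SCs at the transition from precursors to immature cells, and whole-nerve RNA also holds transcripts of cells outside this lineage. The transgene is present in every *Ep400ΔPNS* mouse and in no control, so that effects of the transgene and of the *Ep400* deletion cannot be told apart.

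Hedgehog proteins are secreted ligands that bind Patched receptors. Without ligand, Patched keeps the membrane protein Smoothened inactive, and ligand binding releases Smoothened, which acts through the primary cilium on Gli transcription factors. *Ptch1*, *Gli1* and *Hhip* are themselves induced by the pathway in many tissues and serve as its usual readouts. In peripheral nerve, SCs are the source of Dhh, while the mesenchymal cells around the axon bundles respond to it and form the perineurium, the sheath that encloses each fascicle. Mice without Dhh have a thin and leaky perineurium.

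In *Ep400ΔPNS* nerves, 8 of the 9 hedgehog genes were higher than in controls and 1, *Smo*, was lower. *Dhh* rose by 2.16-fold, *Ptch1* by 1.57-fold, *Gli2* by 1.54-fold, *Hhip* by 1.49-fold, *Gli1* by 1.45-fold, *Gli3* by 1.41-fold and *Boc* by 1.31-fold. The weakly expressed *Shh* rose by 5.13-fold, and *Smo* dropped to 0.706 times its control level. The median log2 fold change of the 9 genes was 0.57, beside 0.01 over all genes tested. Past the same test were 31.4% of all 17003 genes, with 15.7% higher and 15.8% lower in *Ep400ΔPNS* nerves. The 9 genes were chosen with earlier results of these data known. The 8 and the 1 are therefore a description and no test against these shares. In whole-nerve RNA, fewer cells of a type and less RNA per cell cannot be told apart.

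Every gene has 1 normalized count in the table, averaged across the 6 libraries, and a log2 fold change of *Ep400ΔPNS* over control with its standard error (SE) and the p-value of a DESeq2 Wald test. Values of single libraries were not analysed here, so levels stand without an SD and whether the groups overlap cannot be read. The SE gives the spread between replicates only as DESeq2 modelled it. Levels named for a genotype were derived from the mean and the fold change, as both groups had the same size. Adjusted p-values result from Benjamini-Hochberg adjustment of the Wald p-values over all 17003 genes whose mean was 10 or more, and genes with an adjusted p under 0.05 are called higher or lower. Intervals are 95% intervals from the SE. Fold changes are shrunken toward no change by DESeq2, which alters genes with a large SE most, weakly expressed or not. The means sum to 25.6 M over all genes. *Ep400* itself had a log2 fold change of -0.70 (SE 0.092, adjusted p = 1.0e-12), with reads counted over the whole gene in all cell types of the nerve.

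**Figure D1:**
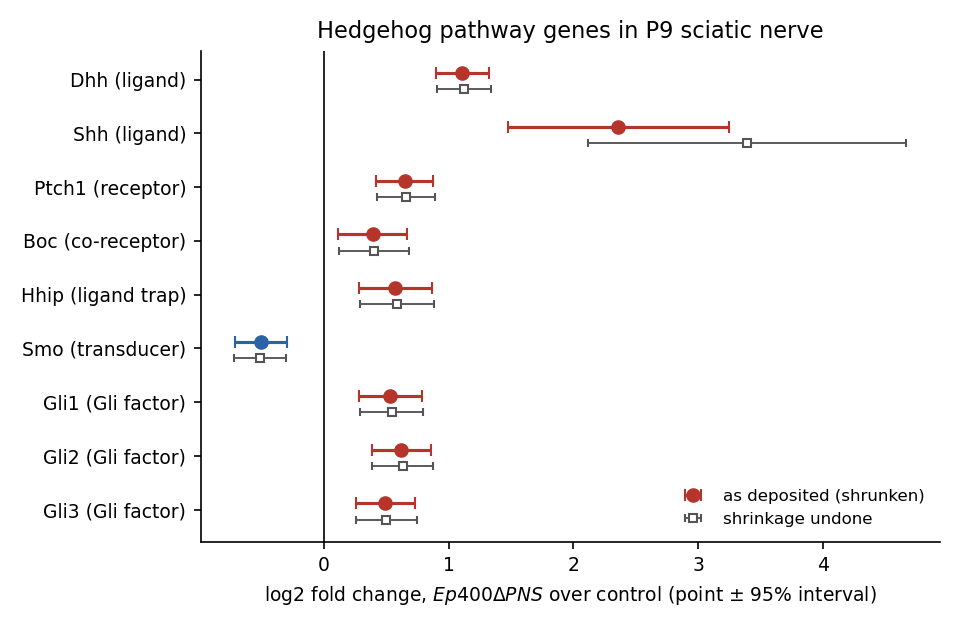
Log2 fold change of *Ep400ΔPNS* over control (horizontal axis) for the 9 hedgehog genes, grouped by role, with bars for the 95% interval from the SE. *Shh* (2.36) and *Dhh* (1.11) lie farthest to the right, *Smo* (-0.50) is the only gene left of 0, and the other 6 genes lie between 0.39 and 0.65 with overlapping intervals.

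*Dhh* (ENSMUSG00000023000) encodes the hedgehog ligand of SCs and lies on the minus strand of chromosome 15 from 98891152 to 98898540 (mm10). Its mean normalized count was 14403, the highest of the 9 genes. The derived level was 9123 in control and 19683 in *Ep400ΔPNS* nerves. Control nerves thus already held abundant *Dhh* RNA. The log2 fold change was 1.11 (SE 0.109, adjusted p = 7.4e-23), a 2.16-fold rise with an interval from 0.90 to 1.32 on the log2 scale. By size this was the 767th largest rise among the genes tested, and by p-value *Dhh* ranked 355th. That interval includes a 2-fold change, and in a Wald test against a 2-fold change *Dhh* was not past the threshold (unadjusted p = 0.313). In mm10, 546 of the 4399 exonic bases of *Dhh* (12.4%) are shared with *Rhebl1* on the same strand. That gene had a mean of only 36.0 and a log2 fold change of -0.63 (SE 0.411, adjusted p = 0.258). *Gm49442*, an antisense gene with 1107 exonic bases in common with *Dhh*, was not in the table. The methods name a kit for stranded libraries. Whether reads were then counted by strand is not stated in the sources used here, which leaves values of genes with antisense partners uncertain.

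*Shh* (ENSMUSG00000002633) encodes Sonic hedgehog, the ligand that patterns neural tube and limb. The gene lies on the minus strand of chromosome 5 from 28456815 to 28467256. In sciatic nerve its mean normalized count was 41.9, the lowest of the 9 genes. Levels of 13.7 in control and 70.1 in *Ep400ΔPNS* nerves were derived. The log2 fold change was 2.36 (SE 0.452, adjusted p = 1.9e-06), a 5.13-fold rise with an interval from 2.77 to 9.47. *Shh* is thus the hedgehog gene with the highest fold change, the lowest level and the widest interval. Once the shrinkage was undone, the fold change became 10.5 (interval 4.34 to 25.4), and the derived levels 7.29 and 76.5. Its SE exceeded that of 99 of the 100 genes nearest in mean, whose median SE was 0.375. Which library or libraries carried the reads was not analysed here. Antisense genes *9530036O11Rik* and *Gm26894*, which overlap *Shh*, had means of 1.07 and 0.997. Skeletal muscle genes were another group with wide SEs and higher levels in *Ep400ΔPNS* nerves, with 6 of 6 markers past the test and a median log2 fold change of 1.64. The summed marker level was 33529 in control and 100452 in *Ep400ΔPNS* nerves. This sum and the median rest on shrunken fold changes. Once the shrinkage was undone, the fold change was larger for every muscle marker. For *Neb* it became 11.2 in place of 4.29, for *Ttn* 8.68 in place of 3.08 and for *Myh4* 4.89 in place of 2.56. Epidermal keratins, from a tissue that uses *Shh* in hair follicles, were near 0 for *Krt14* (mean 0.936), at 7.55 for *Krt5* and at 5.79 for *Krt1*, while *Krt10* (mean 194) had a log2 fold change of 0.28 (adjusted p = 0.364). The part of either tissue in the *Shh* value was not tested.

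*Dhh* and *Shh* are the 2 hedgehog genes at least 2-fold higher in *Ep400ΔPNS* nerves, a rise that 5.32% of all genes tested reached at the same threshold. Their intervals did not overlap each other, nor those of the other members. *Ihh*, the remaining mammalian hedgehog ligand, had a mean of 6.89 and was too low to be tested.

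*Ptch1* (ENSMUSG00000021466) encodes the receptor that binds the ligands and restrains Smoothened. It lies on the minus strand of chromosome 13 from 63508328 to 63573598. At a mean of 7996, its derived level was 6228 in control and 9764 in *Ep400ΔPNS* nerves. The log2 fold change was 0.65 (SE 0.116, adjusted p = 3.2e-07), a 1.57-fold rise with an interval from 1.34 to 1.84. This was the clearest rise, by p-value, among the members other than *Dhh*.

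*Hhip* (ENSMUSG00000064325), whose membrane protein sequesters hedgehog ligands, lies on the minus strand of chromosome 8 from 79965851 to 80058006. Derived levels were 510 in control and 758 in *Ep400ΔPNS* nerves, around a mean of 634. The log2 fold change was 0.57 (SE 0.148, adjusted p = 6.7e-04). *Boc* (ENSMUSG00000022687) encodes a co-receptor that presents ligand to Ptch1 and is found on the minus strand of chromosome 16 from 44485049 to 44558897. With a mean of 537, the derived level went from 465 to 610. Its log2 fold change of 0.39 (SE 0.141, adjusted p = 0.0205) had the lowest size and the highest adjusted p among the 9 genes. Receptor, trap and co-receptor had overlapping intervals, and each rise was under 2-fold.

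*Smo* (ENSMUSG00000001761) encodes Smoothened, the membrane protein that carries the signal into the cell, and lies on the plus strand of chromosome 6 from 29735503 to 29761365. Its mean of 3256 corresponded to a derived level of 3818 in control and 2695 in *Ep400ΔPNS* nerves. The log2 fold change was -0.50 (SE 0.105, adjusted p = 1.4e-05), or 0.706 times control with an interval from 0.612 to 0.814. *Smo* was the only one of the 9 genes to fall, and its interval overlapped none of the others. The transducer therefore moved opposite to its receptor and to all 3 Gli factors.

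All 3 Gli transcription factors, which bind the same DNA motif, were higher in *Ep400ΔPNS* nerves. *Gli1* (ENSMUSG00000025407) encodes an activator and is itself a target of the pathway. It maps to the minus strand of chromosome 10 from 127329882 to 127341974. The derived level was 1088 in control and 1575 in *Ep400ΔPNS* nerves. With a log2 fold change of 0.53 (SE 0.128, adjusted p = 2.2e-04), *Gli1* rose by 1.45-fold (interval 1.22 to 1.72). *Arhgap9* on the opposite strand shares 62 of its bases with *Gli1* exons, at a mean of 66.4 beside the 1332 of *Gli1*. *Gli2* (ENSMUSG00000048402), the main activator downstream of Smoothened, maps to the minus strand of chromosome 1 from 118834132 to 119053619. It went from a derived level of 606 to one of 934, with a log2 fold change of 0.62 (SE 0.122, adjusted p = 3.1e-06). *Gli3* (ENSMUSG00000021318), which acts mostly as a repressor without ligand, maps to the plus strand of chromosome 13 from 15463235 to 15730026. Its derived level went from 717 to 1010, with a log2 fold change of 0.49 (SE 0.122, adjusted p = 3.4e-04). Activators and the mainly repressive factor thus rose by similar amounts, with overlapping intervals.

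**Figure D2:**
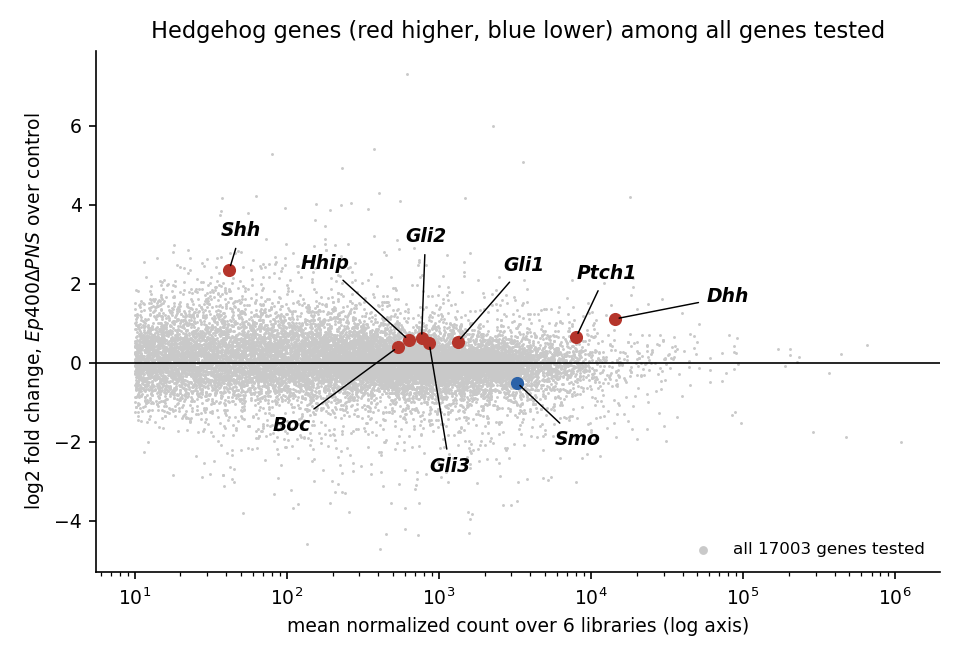
Log2 fold change of *Ep400ΔPNS* over control (vertical axis) against mean normalized count over the 6 libraries (horizontal axis, log scale) for all 17003 genes tested in grey and the 9 hedgehog genes as labelled points. *Dhh* lies at a mean of 14403 and a log2 fold change of 1.11, *Shh* at 41.9 and 2.36, and *Smo* is the member below 0.

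Levels of different genes were compared as mean normalized count per kb of exon, over both genotypes together. *Dhh* had 3274 per kb and stood above 98.9% of the genes tested. *Smo* followed with 579 per kb and *Ptch1* with 564 per kb, so that *Dhh* RNA was 5.65 times as abundant per length as the next gene. The nuclear factors were lower, with 267 per kb for *Gli1*, 112 per kb for *Gli2* and 90.1 per kb for *Gli3*. *Boc* (121 per kb) and *Hhip* (69.9 per kb) lay in the same range. *Shh* came last with 14.7 per kb, and *Dhh* exceeded it by 223 times. Neighbours in this order stood 1.03 times apart for *Smo* and *Ptch1*, 1.08 times for *Boc* and *Gli2*, 1.24 times for *Gli2* and *Gli3* and 1.29 times for *Gli3* and *Hhip*. No spread over libraries is known for these levels, so whether such neighbours differ was not tested.

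**Figure D3:**
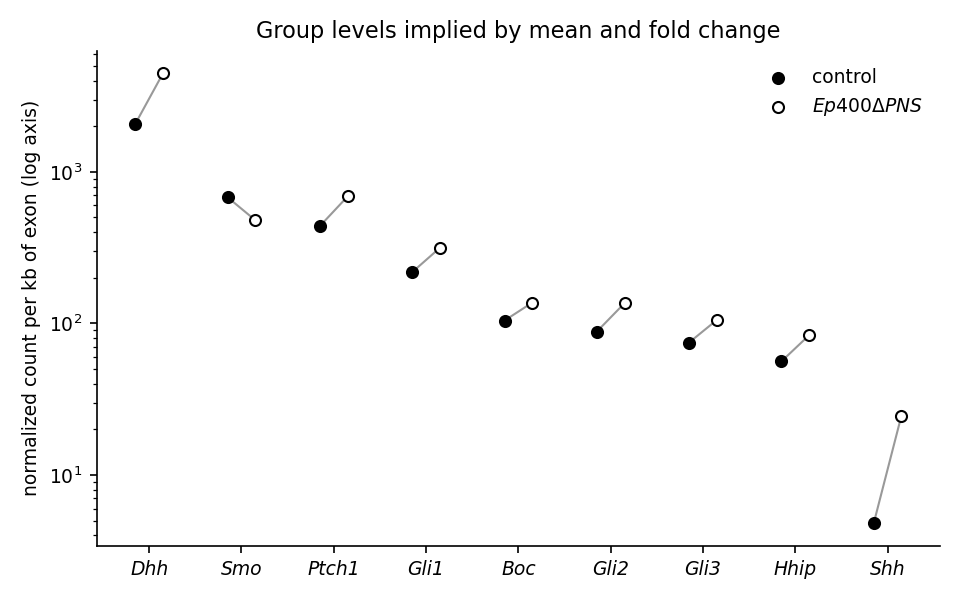
Mean normalized count per kb of exon (log scale) for the 9 hedgehog genes, derived for control and *Ep400ΔPNS* nerves, without error bars because single libraries were not analysed. *Dhh* lies far above *Smo* and *Ptch1*, and *Shh* is lowest in both genotypes.

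Promoter sequences are shown for *Dhh*, whose regulatory region also drives the Cre transgene, and for the receptor gene *Ptch1* and the transducer gene *Smo*, which moved in opposite directions. RefSeq promoters (GRCm38.p6) matched 6 of the 9 members and did not include *Shh*, *Gli1* and *Boc*. The 250 bases before the RefSeq start are given 5′ to 3′ on the strand of the gene, for *Dhh* at chr15:98898541-98898790 (minus strand), *Ptch1* at chr13:63565736-63565985 (minus strand) and *Smo* at chr6:29735247-29735496 (plus strand). The *Ptch1* stretch lies inside the annotated gene, which extends to 63573598, and so precedes an internal start. Sequence before the outermost start of *Ptch1* was not examined. Capitals mark GC boxes, the letters GGGCGG or their reverse complement CCGCCC.
Dhh: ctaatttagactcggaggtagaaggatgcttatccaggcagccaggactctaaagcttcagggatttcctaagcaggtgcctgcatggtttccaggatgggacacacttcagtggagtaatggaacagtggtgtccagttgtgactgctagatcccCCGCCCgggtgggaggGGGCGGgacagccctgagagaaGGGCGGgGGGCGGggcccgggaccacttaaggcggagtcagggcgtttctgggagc
Ptch1: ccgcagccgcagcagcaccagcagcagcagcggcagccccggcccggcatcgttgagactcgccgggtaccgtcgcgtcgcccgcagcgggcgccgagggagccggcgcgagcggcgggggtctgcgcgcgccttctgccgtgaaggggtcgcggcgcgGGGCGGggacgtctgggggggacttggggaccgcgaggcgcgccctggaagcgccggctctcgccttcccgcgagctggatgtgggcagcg
Smo: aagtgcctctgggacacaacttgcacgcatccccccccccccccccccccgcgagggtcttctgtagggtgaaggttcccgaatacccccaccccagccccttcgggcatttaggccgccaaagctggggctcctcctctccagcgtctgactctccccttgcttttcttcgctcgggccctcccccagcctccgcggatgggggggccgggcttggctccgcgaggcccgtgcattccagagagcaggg
The *Dhh* promoter held 4 GC boxes within these bases, that of *Ptch1* 1 and that of *Smo* none. In all, 5 of the 6 matched members had at least 1, beside 32.7% of all RefSeq promoters. The GC box was searched after the data had been seen. The Gli motif GACCACCCA, or TGGGTGGTC on the other strand, was in 0 of the 6 promoters of 300 bases (250 before and 50 after the start), and in 0.253% of 32851 promoters. With 1 mismatch allowed it was again in 0 of 6, and in 6.74% of all promoters, which says only that these letters were not in these windows. GC content of the 300 bases was 61.7% for *Dhh*, 67.7% for *Smo* and 76.3% for *Ptch1*, beside a median of 52.7% over all promoters. The ratio of observed to expected CpG was 0.438 for *Dhh*, 0.504 for *Smo* and 1.09 for *Ptch1*, with a median of 0.384 over all promoters.

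As *Ep400ΔPNS* mice carry a *Dhh::Cre* transgene, genes around the endogenous *Dhh* locus were examined. *Lmbr1l* lies upstream of *Dhh* on the same strand, with a gap of 5376 bp between its 3′ end and the *Dhh* start. It had a log2 fold change of 1.07 (SE 0.173, adjusted p = 1.1e-08), a 2.09-fold rise with an interval from 1.66 to 2.65. This was close in size to the rise of *Dhh*, and its derived level went from 392 to 822. Of the 5 nearest genes on each side, 9 were tested, of which 2 were higher, 3 lower and 4 not past the test, with a median log2 fold change of -0.37. Within 10 genes on each side, 16 were tested, of which 6 were higher and 4 lower, and the median turned to 0.15. *Tuba1b* was the other of the nearest genes to rise (log2 fold change 0.49, adjusted p = 0.0031), and *Tuba1a* fell (-1.23, adjusted p = 1.5e-25), though values of these near-identical tubulin genes are uncertain. On the 3′ side, *Ddn* (-0.89, adjusted p = 5.4e-14) and *Prkag1* (-0.37, adjusted p = 0.017) were lower. No call was made for *Kmt2d* (-0.07), *B130046B21Rik* (-0.75, adjusted p = 0.088), *Rhebl1* and *4930578M01Rik* (0.09), and *Gm8973* had no counts. The neighbours of *Dhh* thus moved in both directions. The sources used here do not state how far the transgene extends or whether it adds reads to *Dhh* or *Lmbr1l*, and its part in either value was not tested.

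**Figure D4:**
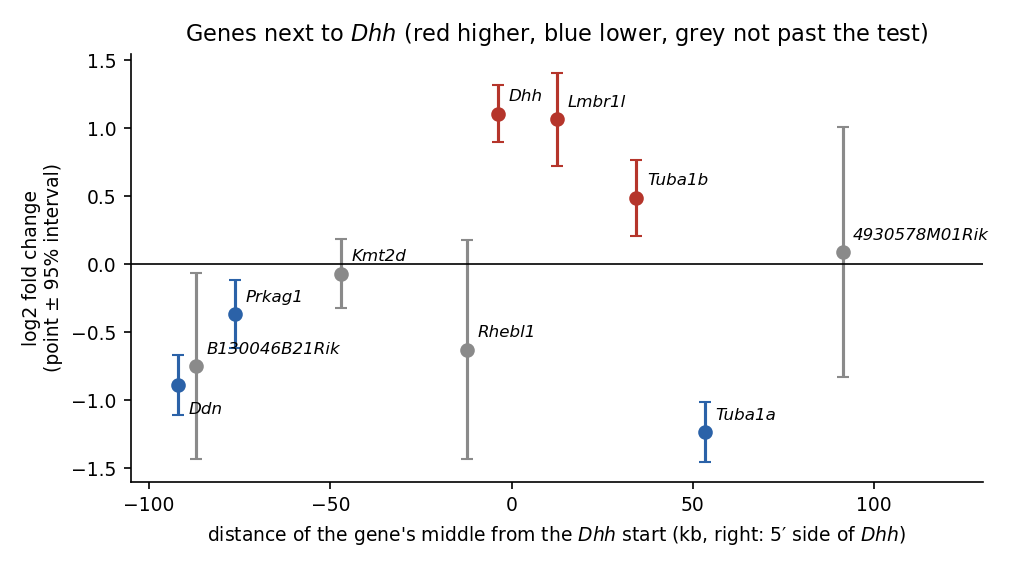
Log2 fold change of *Ep400ΔPNS* over control, with bars for the 95% interval, for *Dhh* and the tested genes among its 5 nearest annotated genes on each side, plotted by distance from the *Dhh* start in kb. *Dhh* (1.11) and *Lmbr1l* (1.07) lie highest, and *Tuba1a* (-1.23) and *Ddn* (-0.89) lowest.

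The wider pathway was described with 6 lists, which contain the 9 genes as well. Over all lists 71 genes were tested, of which 21 were higher, 11 lower and 39 not past the test. Without the 9 members, 62 genes remained with 13 higher, 10 lower and 39 not past the test, and a median log2 fold change of 0.09. Of all genes tested, 15.7% were higher and 15.8% lower.

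Of the 8 tested genes for ligands and their release, 3 were higher and 1 was lower. Beside *Dhh* and *Shh*, *Scube3*, from a family of secreted proteins that help release hedgehog ligands, rose by 1.40 on the log2 scale (SE 0.204, adjusted p = 1.3e-10) at a mean of 236. Its relatives *Scube1* (-0.01 at a mean of 2313, adjusted p = 0.965) and *Scube2* (0.49, adjusted p = 0.059) did not pass the test. *Disp1*, the transporter that lets the lipid-bound ligand leave the producing cell, fell by 0.46 (SE 0.107, adjusted p = 1.3e-04). *Hhat*, the acyltransferase of the ligands, did not pass the test (0.24, adjusted p = 0.439). The ligand gene and the gene for its release transporter thus changed in opposite directions.

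Of the 8 genes for receptors, co-receptors and ligand traps, 6 were higher and none lower. Beside the members, *Gpc3*, a glypican that competes for ligand, had a log2 fold change of 0.52 (SE 0.091, adjusted p = 1.4e-07) and the co-receptor gene *Gas1* one of 0.31 (SE 0.114, adjusted p = 0.0227). *Cdon*, the paralog of *Boc*, did not pass the test (0.13, SE 0.108, adjusted p = 0.383), nor did *Lrp2* (0.26). Without *Ptch1*, *Hhip* and *Boc*, the list still held 3 higher genes of 5, with a median of 0.31.

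Among 13 genes for Smoothened and its regulators, 1 was higher and 3 lower, with no call for 9 and a median log2 fold change of 0.05. *Smo* was joined by *Evc2* (-0.71, SE 0.114, adjusted p = 6.8e-09) and *Iqce* (-0.41, adjusted p = 0.0067), which encode parts of the ciliary complex through which Smoothened signals. *Arrb1*, a beta-arrestin, was higher (0.28, adjusted p = 0.049). *Evc*, the partner of *Evc2* in that complex, did not pass the test (0.09).

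Of 10 genes for Gli factors and their regulators, 4 were higher and 2 lower. *Kif7*, a ciliary kinesin that controls Gli proteins, joined the Gli genes with 0.49 (SE 0.151, adjusted p = 0.0056). *Btrc* (-0.62, SE 0.120, adjusted p = 2.4e-06) and *Spop* (-0.32, SE 0.108, adjusted p = 0.0119), whose proteins take part in ubiquitination of Gli factors, were lower. *Sufu*, the main inhibitor of Gli factors, did not pass the test (0.15, adjusted p = 0.428). Without the 3 Gli genes the list's median was -0.16.

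Cilium and intraflagellar transport genes moved in both directions, with 3 higher, 5 lower and 16 of 24 not past the test, and a median of 0.06. *Kif3a*, a motor subunit of ciliary transport, was lower (-0.51, adjusted p = 1.5e-04), as were *Wdr19* (-0.66), *Inpp5e* (-0.57) and *Tulp3* (-0.35), while *Dync2li1* (0.45), *Ift27* (0.47) and *Wdr35* (0.43) were higher.

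Of 8 tested hedgehog target genes outside the pathway core, 4 were higher and none lower, with a median of 0.60. *Ccnd1*, which encodes cyclin D1, had a log2 fold change of 1.73 (SE 0.111, adjusted p = 5.1e-52), *Mycn* one of 0.83 (SE 0.141, adjusted p = 4.3e-08) and *Foxc2* one of 0.70 (SE 0.139, adjusted p = 4.6e-06). *Nkx2-2*, a target of Sonic hedgehog in the ventral neural tube, had 2.63 (SE 0.448, adjusted p = 6.2e-08) at a mean of only 30.1. *Bcl2* (0.07), *Sfrp1* (0.08), *Foxf1* (-0.04) and *Foxl1* (0.50, adjusted p = 0.397) did not pass the test, and *Nkx6-1* and *Foxf2*, with means of 7.96 and 6.11, were too low to be tested. These genes have many regulators besides Gli factors.

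**Figure D5:**
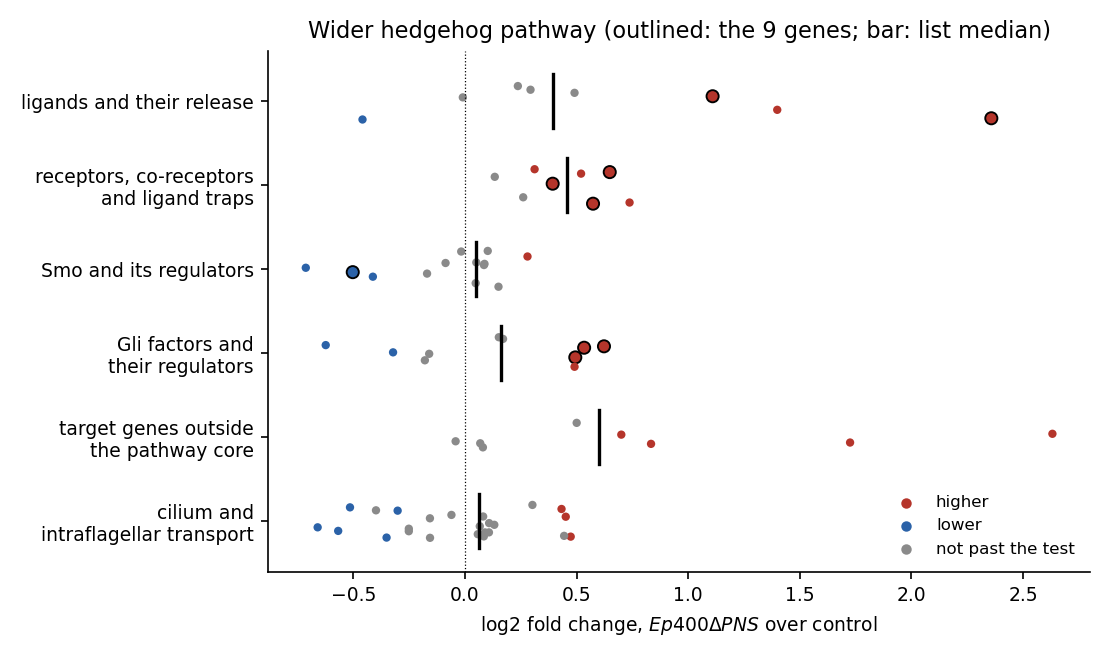
Log2 fold change of *Ep400ΔPNS* over control for every tested gene of the 6 pathway lists, 1 row per list, with the 9 hedgehog genes and the list medians marked. Receptors and target genes lie mostly above 0 (medians 0.46 and 0.60), and genes of Smoothened regulation and of the cilium lie around 0 (medians 0.05 and 0.06).

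Cell type markers of the nerve were set beside the hedgehog genes. Of 10 SC markers, from the cells that make Dhh, 2 were higher, 3 lower and 5 not past the test, with a median log2 fold change of -0.11. *S100b* (-2.42) was lower, *Ngfr* of immature SCs was higher (1.28, adjusted p = 8.8e-29), and the lineage gene *Sox10* had -0.26 (adjusted p = 0.110). *Dhh* thus rose while the marker of the whole lineage did not pass the test.

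Of 12 perineurial markers, from cells that respond to Dhh, 5 were higher, 1 lower and 6 not past the test, with a median log2 fold change of 0.68. Their summed level was 28894 in control and 28585 in *Ep400ΔPNS* nerves. *Itgb4* contributed 10050 and 5713 to this sum, and *Tjp1* 9728 and 8505. Whether *Itgb4* and *Tjp1* RNA came from perineurial cells alone was not tested. *Tenm2* (1.01) and *Cldn1* (0.84), which encodes a tight junction protein, were higher, *Itgb4* (-0.81) was lower and the glucose transporter gene *Slc2a1* (0.12, adjusted p = 0.536) did not pass the test. Endoneurial fibroblast markers were higher in 4 of 6 cases, among them *Meox1* (1.47), *Pdgfra* (0.60) and *Sox9* (0.54), with a median of 0.55, and their summed level went from 9389 to 14613. That is 1.56 times, in a sum to which *Pdgfra* contributed 5397 and 8170. Of 7 epineurial fibroblast markers, 3 were higher and 1 lower, with a median log2 fold change of 0.41. Their summed level was 10352 in control and 9870 in *Ep400ΔPNS* nerves, of which the lower gene, *Adamts5*, made up 4613 and 2582. Macrophage markers were higher in 4 of 5 cases (median 0.76, summed level 4194 and 6009). None of the defining markers of these cell types was at 0. The part of a shift in cell types in the values of *Ptch1*, *Hhip* and the Gli genes was not tested.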

How the data were processed

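Sciatic nerve RNA-Seq at P9 with 3 control and 3 *Ep400ΔPNS* libraries was used. According to the methods and the submitters' processing notes, libraries were mapped to mm10 by STAR (version 2.5.1), HTSeq produced unique counts for Ensembl genes, and DESeq2 was run at its defaults (the notes place version 1.10.1 beside R, the methods beside DESeq2). A single comparison of *Ep400ΔPNS* over control was deposited, with 46603 genes and no columns per library. The deposited signal values, named raw in the header, are size-factor-scaled counts averaged across the 6 libraries. The deposited log2 fold changes are shrunken. The deposited score is the Wald statistic, and each deposited p-value belongs to that statistic. All fold changes and p-values given here therefore derive from the authors' own comparison, whose adjusted p-values serve only as an alternative. The methods give an approximate number of sequenced reads common to all libraries, and counted reads per library were not analysed here. No exact test over samples could be run.

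Benjamini-Hochberg adjustment was repeated over the 17003 genes that had a p-value and a mean of 10 or more, with a threshold of 0.05. Group levels were derived from the mean and the fold change. Shrinkage was undone by assuming a normal prior, whose width was taken from the largest SE (0.491), and the formula was tested on simulated data. Levels per kb used exons of GENCODE M21 (mm10), and promoters came from RefSeq (GRCm38.p6). The members and gene lists were chosen with earlier results of these data known. Named are all members, up to 4 genes per direction and list with the smallest p, genes too low to be tested, the 5 nearest genes on each side of *Dhh*, and *Ep400*. Some genes that this rule or the marker lists select are not reported here. Other list and marker genes, overlapping genes, the GC box and the comparison of the SE of *Shh* with genes of similar mean were added after values were seen. Alternatives tried were a threshold of 0.01, other minimum means (none, or 50), the authors' adjusted p, a test against a 2-fold change, undone shrinkage, genes with a symbol, the longest transcript as length, more neighbours and a motif mismatch. Software was Python 3.11.15 with pandas 2.3.3, numpy 2.4.6, matplotlib 3.10.9 and scipy 1.17.1.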

Additional observations from a re-analysis of the deposited data

How the results depend on the processing

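The 8 higher and 1 lower hedgehog genes kept their calls with undone shrinkage, with the authors' own adjusted p, without a filter on the mean and over genes with a symbol only. An adjusted p under 0.01 removed *Boc*, and left 8 higher genes over all pathway lists without the members in place of 13. The adjusted p of *Boc* ran from 0.018 to 0.036 over the alternatives other than the test against a 2-fold change. A mean of at least 50 left *Shh* untested. In a Wald test against a 2-fold change, 0 members were higher and 0 lower, at an unadjusted p under 0.05 for 1, *Shh* (adjusted p = 0.0985). The other pathway genes then numbered 2 higher and 0 lower, and the neighbours of *Dhh* 0 and 0. With 10 genes per side of *Dhh*, 6 neighbours were higher in place of 2, 4 lower in place of 3, and their median log2 fold change was 0.15 in place of -0.37. Levels per kb of the longest transcript were 3395 for *Dhh*, 862 for *Smo*, 770 for *Ptch1*, 328 for *Gli1*, 116 for *Gli2* and 106 for *Gli3*, in the same order. No paired analysis was possible because the table holds no columns of single libraries, and for the same reason no library could be left out. Each p-value reflects variation among the 6 libraries only as DESeq2 modelled it. Whether a library came from a single mouse is not stated in the sources used here. How the reads of low genes such as *Shh* were spread over the libraries was not analysed here.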
